A study of Bos taurus with 9 samples.

Results

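DEGS1, CREG1, ANKRD1, XPNPEP1 and NOP9 are 5 bovine genes whose transcripts stood near the far end of the ranking when metaphase II oocytes given microplastics and taurine were set against control oocytes. They were picked by symbol for a small unadjusted p in that comparison, 5 of 13190 genes tested and of 17852 genes with a row in the table. All 5 symbols matched 1 gene each, all 5 genes passed the filter on low counts, and each is represented by 1 transcript. DEGS1, CREG1 and ANKRD1 stood lower with taurine than in control, and XPNPEP1 and NOP9 stood higher. The edgeR quasi-likelihood test called 1 gene between taurine and control at an adjusted p under 0.05, which is 0.00758% of genes tested, and it was none of these 5. The DESeq2 Wald test on the same libraries called 5 genes, 0.0449% of those it gave an adjusted p, and 4 of them were DEGS1, NOP9, CREG1 and XPNPEP1. Whether those 4 genes count as called thus depends on the tool, while ANKRD1 was called by neither test. Since this difference chose the 5 genes, such calls are no test of them, and they are described here by ranks and levels.

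Metaphase II is the arrest in which an ovulated mammalian egg waits for sperm. The 9 RNA libraries are 3 of control oocytes, 3 of oocytes that met microplastics and 3 of oocytes that met microplastics and also received taurine, a sulfur-containing amino acid derivative abundant in reproductive fluids (called taurine libraries below). All are female germ cells of Bos taurus. The sources used here do not state the polymer, particle size or dose of the microplastics, the dose of taurine, or the number of oocytes and animals behind a library, so p-values measure the spread between these libraries, which may be technical. In bulk RNA, fewer cells of a type and less RNA per cell cannot be told apart.

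The 5 genes work in unrelated places. DEGS1 encodes the dihydroceramide desaturase, which makes the last step of ceramide synthesis in the endoplasmic reticulum, and ceramide is the parent of sphingomyelin and the glycosphingolipids. CREG1 is a secreted and lysosomal glycoprotein that reaches lysosomes partly through the mannose 6-phosphate receptor. ANKRD1 is an ankyrin repeat protein of striated muscle, a transcriptional cofactor and a widely used target gene of YAP and TEAD. XPNPEP1 is a cytosolic metallopeptidase that removes an N-terminal residue standing before proline. NOP9 is an RNA-binding protein of the nucleolus needed to make the small ribosomal subunit. A metaphase II oocyte is nearly silent in transcription and lives on stored maternal mRNA, so levels at this stage reflect storage and decay as well as synthesis.

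Libraries held 21.17 to 22.74 M estimated reads. TMM factors, which scale each library for its composition, ranged from 0.836 to 0.972 in the control group, from 1.21 to 1.25 in the microplastics group and from 0.841 to 0.958 in the taurine group, so the choice of scaling shifts every comparison with the microplastics group. Control 3 and taurine 3 stood apart from their labels: control 3 had a correlation over genes of 0.976 with taurine 1 but 0.962 with control 1, and taurine 3 correlated at 0.977 with control 2 and at 0.951 with taurine 1. The 20 oocyte markers had summed CPM (reads scaled by library size and TMM factor) between 98528 and 127504 in control. Their sums lay between 44558 and 52675 with microplastics and between 91139 and 118968 with taurine, and BTG4, an mRNA decay adaptor, had the highest level in each group (means of 59409, 19789 and 52892 CPM). In microplastics minus the mean of control and taurine 8 of the 20 were called lower by edgeR and 4 higher, so the sum does not stand for each marker. Over all tested genes 15.1% were called lower and 10.9% higher in that comparison. Of 19 cumulus and granulosa markers 18 had a row and 13 were tested. Sums over the 18 were 512 to 616, 422 to 523 and 521 to 569 CPM in the same order of groups, with 0 markers without a read in all libraries. STAR had the highest level among them in each group, at means of 283, 309 and 281 CPM. In microplastics minus the mean of control and taurine 5 of the 13 were called lower by edgeR and 0 higher, beside 15.1% and 10.9% of all tested genes. TNFAIP6, a cumulus matrix gene, averaged 22.9, 0.215 and 11.8 CPM in control, microplastics and taurine. SERPINE2 averaged 46.1, 13.2 and 42.3, and the gap junction gene GJA1 33.8, 12.6 and 21.8. All of these stood in the order of DEGS1 and CREG1, but other markers of the list did not. VCAN averaged 45.3, 30.4 and 51.2 CPM and GREM1 2.57, 4.41 and 2.59 in the same order of groups, and STAR was highest with microplastics. The part of these differences in the results on the 5 genes was not tested.

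The values that chose the genes were the edgeR unadjusted p-values between taurine and control. DEGS1 came 2nd of all genes tested (edgeR unadjusted p = 0.000116) and NOP9 3rd (edgeR unadjusted p = 0.00016). CREG1 came 4th (edgeR unadjusted p = 0.000267), XPNPEP1 5th (edgeR unadjusted p = 0.000384) and ANKRD1 12th (edgeR unadjusted p = 0.00143). Within their direction DEGS1, CREG1 and ANKRD1 took places 1 to 3 of the lower genes, and NOP9 and XPNPEP1 places 2 and 3 of the higher genes. Rank 1 belonged to a gene that has no symbol in the gene table and 0 reads in every control library. Just outside, the next higher gene was PLXNA4, an axon guidance receptor, at 0.123 ± 0.0827 CPM in control and 1.07 ± 0.440 with taurine (edgeR unadjusted p = 0.000456). The next lower gene was CENPB, a centromere-binding protein, at 10.2 ± 3.36 and 3.95 ± 1.17 CPM (SD, n = 3; edgeR unadjusted p = 0.00143).

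Per transcript length the 5 genes spanned a wide range of levels. In control, DEGS1 was at 454 ± 64.8 TPM, CREG1 at 65.2 ± 21.2, XPNPEP1 at 5.88 ± 1.23, ANKRD1 at 5.60 ± 1.46 and NOP9 at 2.22 ± 0.377 (deposited TPM, SD, n = 3). XPNPEP1 and ANKRD1, neighbours in that order, overlapped over their libraries, and the other neighbours did not. Among tested genes DEGS1 lay at the 97.16th percentile of control TPM, CREG1 at the 86.55th, XPNPEP1 at the 53.23rd, ANKRD1 at the 52.39th and NOP9 at the 36.55th. NOP9, the lowest of them, had 75 to 95 reads in a control library.

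**Figure D1:**
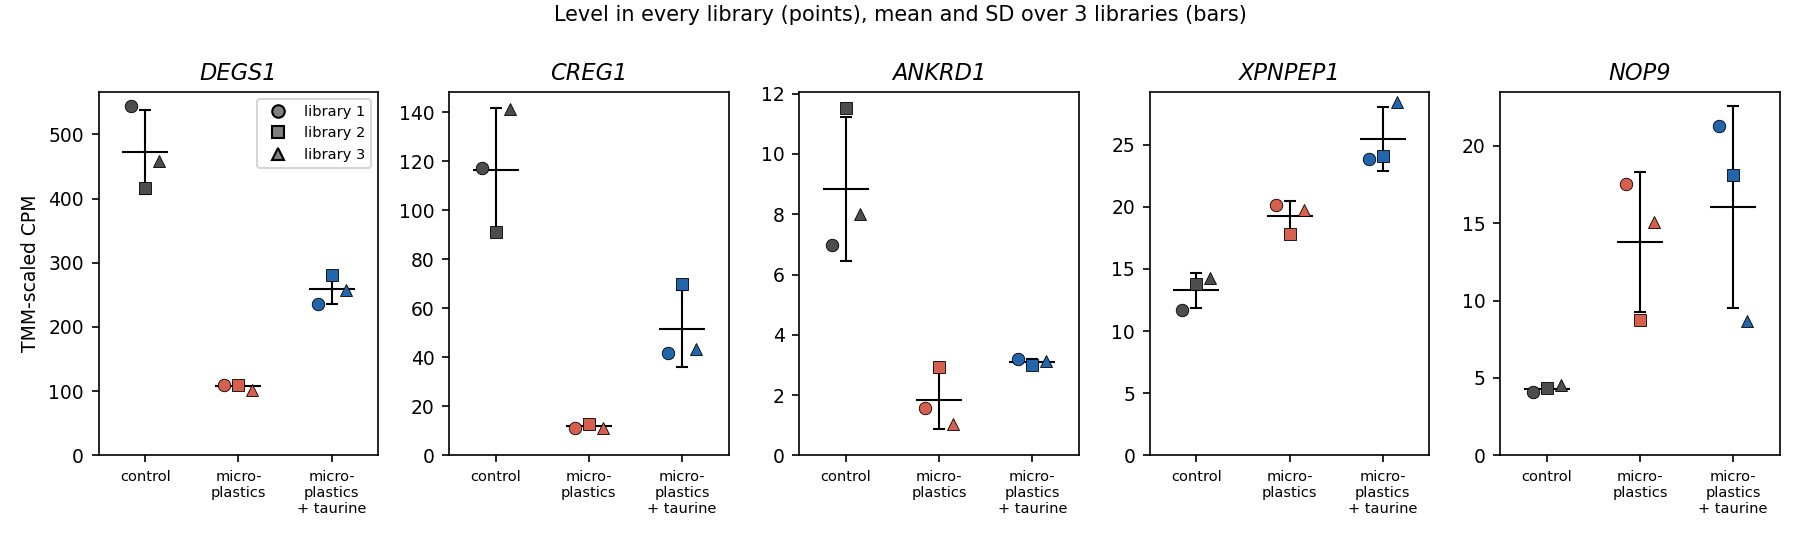
TMM-scaled CPM (y axis, linear, from 0) of the 5 genes in each of the 9 libraries, by group; symbols mark library number, and bars show mean and SD over 3 libraries. DEGS1 taurine libraries sit between the other groups at 236 to 281 CPM, and NOP9 in taurine 3 sits at 8.70 CPM, below the other taurine libraries.

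DEGS1, the ceramide-forming desaturase (gene ID 507290 in the table), was at 544, 416 and 458 CPM in control 1, 2 and 3. It was at 110.2, 109.9 and 102 CPM in microplastics 1, 2 and 3. The taurine libraries held 236, 281 and 258 CPM. No groups overlapped: every control library lay above every taurine library, and every taurine library above every microplastics library. The means were 472 ± 65.3, 107 ± 4.72 and 258 ± 22.3 CPM in control, microplastics and taurine (SD, n = 3). The log2 difference was -0.87 ± 0.16 (SE) for taurine minus control, -2.14 ± 0.16 for microplastics minus control and 1.27 ± 0.16 for taurine minus microplastics. These 3 differences share libraries with the contrast that chose the gene, and carry no test here. Groups whose libraries do not overlap are common in these data. Between taurine and control they make up 9.14% of tested genes (4.58% higher with taurine, 4.56% lower). Between microplastics and control they make up 45.0% (22.4% higher, 22.5% lower), and between taurine and microplastics 36.0% (18.7% higher with taurine, 17.4% lower). On the deposited TPM scale DEGS1 kept its order, at 157 ± 4.46 TPM with microplastics and 261 ± 26.4 with taurine (SD, n = 3).

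CREG1, the lysosomal glycoprotein (gene ID 530908 in the table), was at 117, 91.2 and 141 CPM in control 1, 2 and 3. It was at 11.3, 12.9 and 11.2 CPM with microplastics, the lowest share of its control level among the 5 genes. The taurine libraries held 41.8, 69.8 and 43.3 CPM. As for DEGS1, the 3 groups did not overlap and taurine stood between the others. The means were 117 ± 25.1, 11.8 ± 0.938 and 51.6 ± 15.8 CPM (SD, n = 3). The log2 difference was -1.17 ± 0.23 for taurine minus control, -3.30 ± 0.25 for microplastics minus control and 2.13 ± 0.24 for taurine minus microplastics. On the deposited TPM scale taurine stood between the others as well, at 30.1 ± 10.02 TPM against 9.90 ± 0.413 with microplastics. Control 3 held the highest CREG1 level of all 9 libraries, and without control 3 and taurine 3 the taurine minus control difference was -0.89.

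ANKRD1, the muscle ankyrin repeat protein (gene ID 510376 in the table), was at 6.97, 11.5 and 8.01 CPM in control 1, 2 and 3. With microplastics it was at 1.58, 2.93 and 1.03 CPM, and with taurine at 3.18, 2.99 and 3.12 CPM. Control stood above both other groups in every library, while taurine 2 stood above microplastics 2 by a margin of 2.99 against 2.93 CPM. On the deposited TPM scale that order turned round, microplastics 2 at 2.72 TPM lying above all taurine libraries, which held 1.93 to 2.23 TPM. The means were 8.83 ± 2.39, 1.85 ± 0.981 and 3.10 ± 0.0980 CPM (SD, n = 3). The log2 difference was -1.51 ± 0.37 for taurine minus control, -2.25 ± 0.38 for microplastics minus control and 0.74 ± 0.37 for taurine minus microplastics, the last of which was 0.32 ± 0.38 when libraries were scaled by size only. These values rest on 29 to 218 reads in a library.

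XPNPEP1, the proline-directed aminopeptidase (gene ID 513156 in the table), was at 11.7, 13.8 and 14.3 CPM in control 1, 2 and 3. It was at 20.1, 17.8 and 19.7 CPM with microplastics and at 23.8, 24.1 and 28.4 CPM with taurine. On this scale the groups did not overlap and taurine stood highest. The means were 13.3 ± 1.37, 19.2 ± 1.24 and 25.4 ± 2.57 CPM (SD, n = 3). The log2 difference was 0.94 ± 0.19 for taurine minus control, 0.54 ± 0.19 for microplastics minus control and 0.40 ± 0.19 for taurine minus microplastics. The place of taurine above microplastics depends on the scaling: on the deposited TPM scale the means were 12.9 ± 1.28 with microplastics and 11.7 ± 0.403 with taurine, and with scaling by library size only the taurine minus microplastics difference was -0.038 ± 0.20. In unscaled reads the microplastics libraries held 492 to 557 and the taurine libraries 499 to 519, against 215 to 300 in control.

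NOP9, the nucleolar factor of the small ribosomal subunit (gene ID 528833 in the table), was at 4.08, 4.33 and 4.53 CPM in control 1, 2 and 3, the tightest control group of the 5 genes in proportion to its mean. It was at 17.5, 8.73 and 15.1 CPM with microplastics. The taurine libraries held 21.2, 18.1 and 8.70 CPM. Taurine and microplastics overlapped each other, and neither overlapped control. The means were 4.32 ± 0.223, 13.8 ± 4.53 and 16.0 ± 6.53 CPM (SD, n = 3). The log2 difference was 1.89 ± 0.35 for taurine minus control, 1.67 ± 0.35 for microplastics minus control and 0.22 ± 0.33 for taurine minus microplastics. Taurine 3, the library that correlated best with control 2, held the lowest taurine value of NOP9, and without control 3 and taurine 3 the taurine minus control difference was 2.23. The sign of taurine minus microplastics turned with scaling by library size only (-0.19 ± 0.37), and stood at -0.038 without microplastics 2 and without taurine 1.

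**Figure D2:**
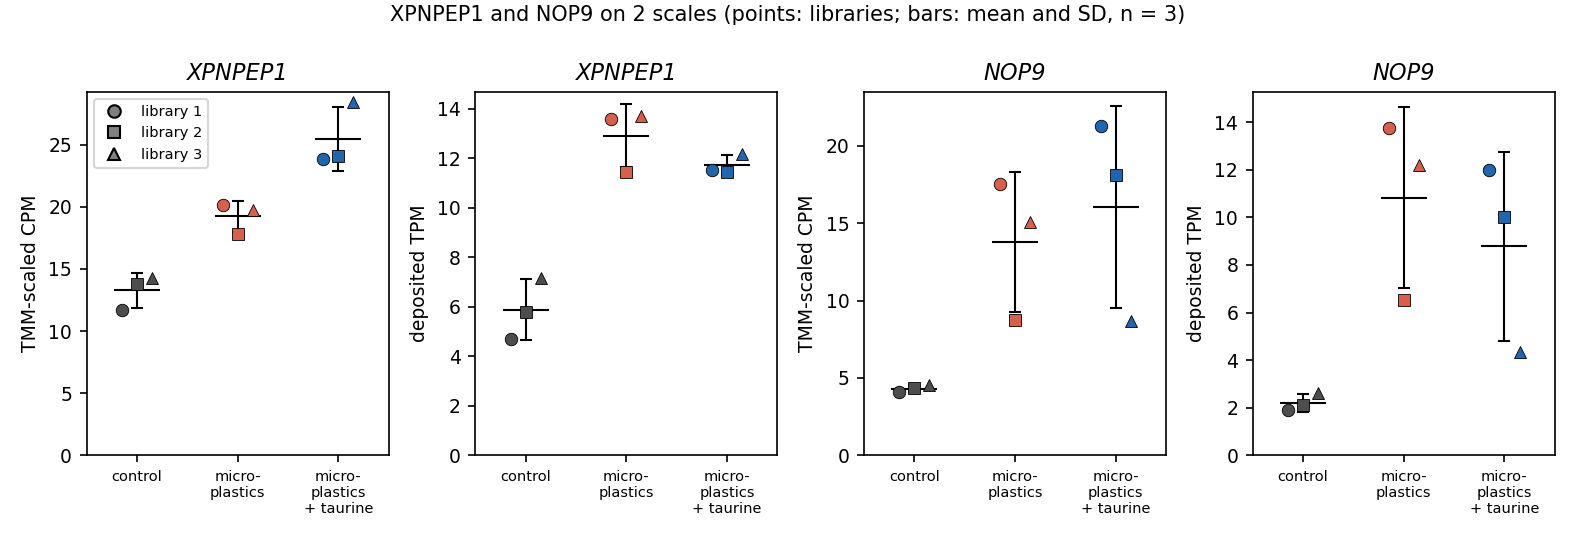
XPNPEP1 and NOP9 as TMM-scaled CPM and as the deposited TPM (y axes, linear, from 0) in each library, with mean and SD over 3 libraries. For both genes the taurine mean is above the microplastics mean in CPM and below it in TPM, at 11.7 against 12.9 TPM for XPNPEP1 and 8.78 against 10.8 TPM for NOP9.

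The comparison that does not use the difference on which the genes were picked sets microplastics against the mean of control and taurine. With 3 libraries a group it is orthogonal to taurine minus control, although both share the estimate of the spread. CREG1 was lower with microplastics by a log2 difference of -2.71 ± 0.23, which is 6.56-fold (edgeR adjusted p = 2.17e-05). DEGS1 was lower by -1.70 ± 0.15, or 3.26-fold (edgeR adjusted p = 2.17e-05), and ANKRD1 by -1.50 ± 0.34, or 2.83-fold (edgeR adjusted p = 0.0074). These 3 of the 5 genes were called, where 26.0% of all tested genes were called and 15.1% were called lower. The 3 calls were kept under each of the 20 alternatives run for them, with a highest edgeR adjusted p of 0.000569 for DEGS1 and CREG1 and 0.0488 for ANKRD1. In the fits that leave out a single control or taurine library the comparison is no longer orthogonal to taurine minus control. Without control 3 and taurine 3 the values were -1.70 for DEGS1, -2.67 for CREG1 and -1.52 for ANKRD1.

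NOP9 (0.73 ± 0.29, edgeR adjusted p = 0.0789) and XPNPEP1 (0.07 ± 0.17, edgeR adjusted p = 0.792) did not pass in that comparison. For XPNPEP1 the microplastics libraries lay near the midpoint of control and taurine, which is not the same as lying near control. Without control 3 and taurine 3 NOP9 was at 0.61 and XPNPEP1 at 0.15, and neither passed. When libraries were scaled by size only, the median of all genes was 0.50 in place of 0.04 and both passed, NOP9 at 1.17 (edgeR adjusted p = 0.0126) and XPNPEP1 at 0.52 (edgeR adjusted p = 0.0299). NOP9 also passed without microplastics 2 (0.98) or without taurine 1 (0.85).

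**Figure D3:**
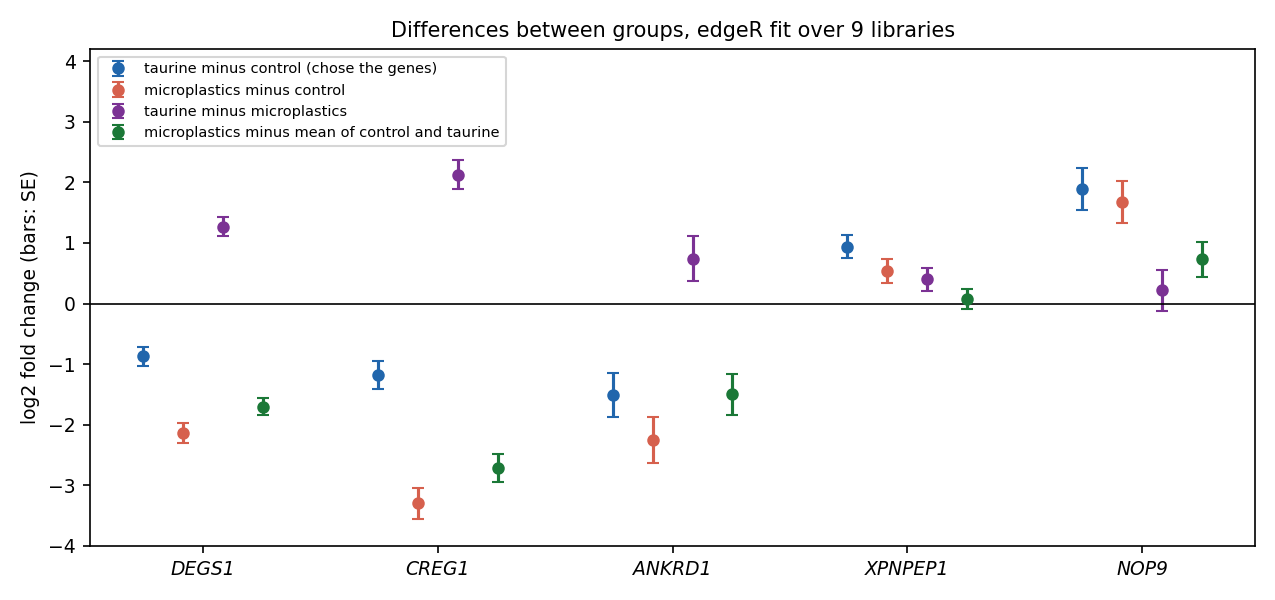
Log2 fold changes with SE (y axis) of the 5 genes in 4 comparisons of the groups, from 1 edgeR fit over 9 libraries. Taurine minus microplastics is 1.27 for DEGS1 and 2.13 for CREG1 and 0.22 for NOP9, while microplastics minus the mean of control and taurine is -2.71 for CREG1 and 0.07 for XPNPEP1.

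The taurine minus control differences kept their sign in every alternative, lying between -0.96 and -0.76 for DEGS1, -1.45 to -0.89 for CREG1, -1.65 to -1.27 for ANKRD1, 0.85 to 0.99 for XPNPEP1 and 1.63 to 2.23 for NOP9. Since taurine minus control in these same libraries chose the genes, a kept sign is no test of them. The ranks of the genes did not keep. Without control 3 and taurine 3 the differences were -0.89 for DEGS1, -0.89 for CREG1, -1.58 for ANKRD1, 0.91 for XPNPEP1 and 2.23 for NOP9. The edgeR test then called 783 genes between taurine and control, 5.83% of 13426 tested, among them DEGS1, XPNPEP1 and NOP9 but not CREG1 or ANKRD1. In that ranking NOP9 came 32nd, DEGS1 296th, XPNPEP1 567th, CREG1 836th and ANKRD1 839th. Without taurine 3 alone, the library with the lowest taurine value of NOP9, edgeR called 2 genes, 0.0148% of those tested. NOP9 was 1 of them (2.19), in the contrast that chose it. DEGS1, CREG1, XPNPEP1 and ANKRD1 thus ranked lower without control 3 and taurine 3, while NOP9 stayed near the top.

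**Figure D4:**
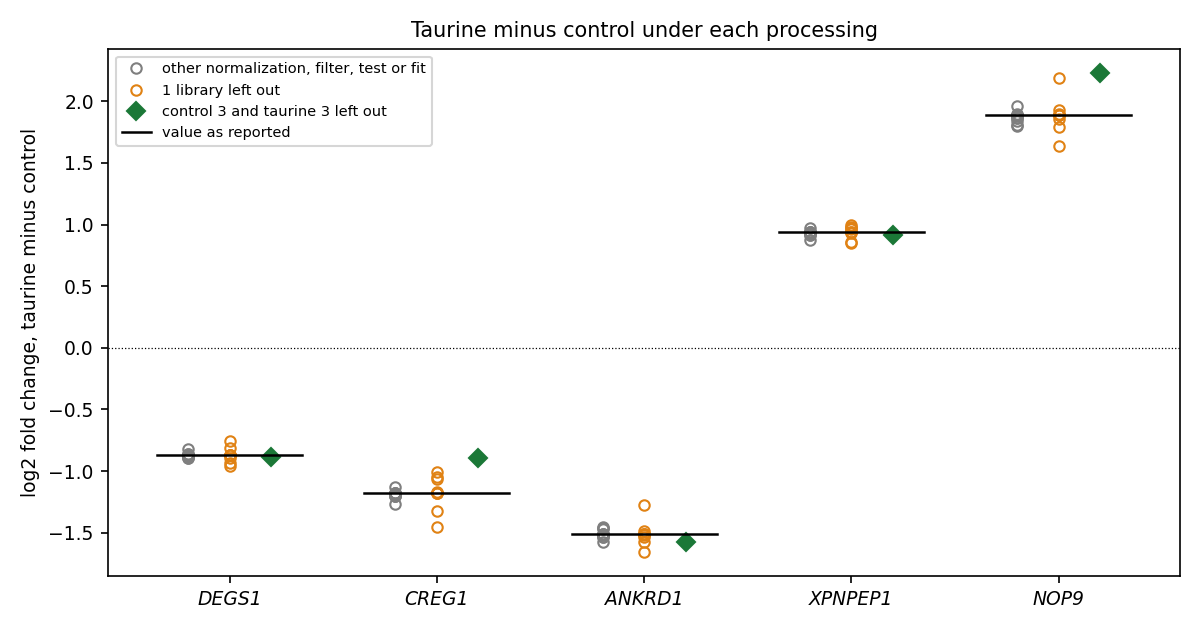
Log2 fold change of taurine minus control (y axis) for each of the 5 genes: black lines show the value as reported, grey circles another normalization, filter, test or fit, orange circles 1 library left out, and green diamonds control 3 and taurine 3 left out. The diamonds are at -0.89 for CREG1 and 2.23 for NOP9, beside -1.17 and 1.89 with all 9 libraries.

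Some features of the transcripts bear on how the counts can be read. DEGS1 overlaps NVL, an AAA-type ATPase gene, and NOP9 overlaps CIDEB, a lipid droplet gene, in the RefSeq gene table, and reads in an overlap cannot be told apart without strand, which is not given for the counting. NVL was at 144 ± 10.8, 162 ± 41.3 and 173 ± 19.4 CPM in control, microplastics and taurine, so it did not share the order of DEGS1. CIDEB was at 0.793 ± 0.228, 1.26 ± 0.325 and 1.30 ± 0.936 CPM (SD, n = 3), under the level of NOP9 in each group. Its group means stood in the same order as those of NOP9. The length that the counts and FPKM imply was 1013 nt for DEGS1, 1535 for ANKRD1, 1769 for CREG1, 1905 for NOP9 and 2215 for XPNPEP1. In microplastics minus the mean of control and taurine the median log2 difference was -0.31 in the shortest length class, which holds DEGS1, and 0.28 in the longest of 5 classes. With that length trend taken out DEGS1 was at -1.51, CREG1 at -2.70 and ANKRD1 at -1.45 in that comparison. As flanking genes were taken the nearest tested genes on either side of the 5 that do not overlap them. These 10 genes stood between -0.45 and 0.45 in taurine minus control. Among them CNIH4, which flanks DEGS1 and was named after its value was seen, stood lowest in microplastics minus control, at -1.63. NFATC4 and DHRS1, which flank NOP9, stood highest there, at 0.92 and 0.86, and at 0.33 and 0.45 in taurine minus control.

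The 3 genes whose log2 CPM was most like each of the 5 over the 9 libraries were found by Pearson correlation, as a description of libraries that share their group structure. The search covered only tested genes with a symbol that does not start with LOC. DEGS1 was most like SLC12A1, a sodium, potassium and chloride cotransporter (r = 0.994), CREG1 itself (r = 0.988) and ERP44, a thioredoxin-fold chaperone of the early secretory pathway (r = 0.985). CREG1 was most like DEGS1, TXNDC12 (r = 0.981), a thioredoxin-like protein of the endoplasmic reticulum, and SLC12A1 (r = 0.980). ERP44 was at 280 ± 110 CPM in control, 31.1 ± 0.998 with microplastics and 145 ± 13.9 with taurine, and SLC12A1 at 28.7 ± 5.99, 5.78 ± 0.493 and 16.2 ± 1.05 CPM (SD, n = 3). Both stood in the order of DEGS1 and CREG1, with taurine between the other groups, which their choice by correlation over these same libraries brings with it.

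ANKRD1 was most like LRRK2 (r = 0.968), COMMD8 (r = 0.958) and KIF1C (r = 0.956). With scaling by library size only the correlation with COMMD8 was 0.678. XPNPEP1 was most like PLCL2 (r = 0.940), RAB9B (r = 0.931) and TLE7 (r = 0.929), and PLCL2 was at 15.4 ± 0.647, 22.2 ± 1.06 and 24.6 ± 0.155 CPM in control, microplastics and taurine. NOP9 was most like MYLK (r = 0.927), the smooth muscle myosin light chain kinase, CHST3 (r = 0.926) and MRAS (r = 0.925), a small GTPase at 29.7 ± 1.53, 43.0 ± 1.15 and 43.7 ± 5.11 CPM (SD, n = 3). Among the 5 genes themselves r was 0.988 between DEGS1 and CREG1, 0.879 between DEGS1 and ANKRD1 and 0.784 between XPNPEP1 and NOP9, over 9 libraries. Pairs of a lower and a higher gene had negative r, from -0.812 for ANKRD1 and NOP9 to -0.426 for CREG1 and XPNPEP1. The genes were chosen on a difference between these same libraries, so these values are a description.

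The other genes of sphingolipid synthesis and turnover moved in both directions with microplastics. Of 35 tested besides DEGS1, 5 rose, 7 fell and 23 did not pass in microplastics minus the mean of control and taurine, with a median of 0.22 against 0.04 over all genes. SGMS2, a sphingomyelin synthase, fell from 763 ± 64.3 CPM in control and 659 ± 108 with taurine to 315 ± 49.8 (log2 -1.17, edgeR adjusted p = 0.000421). ASAH1, the acid ceramidase, stood at 122 ± 42.7, 37.6 ± 2.65 and 83.8 ± 19.7 CPM in control, microplastics and taurine and fell by 1.43 on the log2 scale. GBA2, a glucosylceramidase outside the lysosome, rose by log2 1.07, and ORMDL3, an inhibitor of serine palmitoyltransferase, by 0.66. ORMDL3 did not pass without microplastics 1 (0.63), nor GBA2 when transcripts were tested one by one (1.42). Between taurine and control 0 of the 35 were called by edgeR, DESeq2 or limma-voom, and 4 had an edgeR unadjusted p under 0.05, all of them lower. Over all tested genes 5.69% had such a p, 3.02% higher and 2.67% lower. The DEGS1 paralog DEGS2, also a dihydroceramide hydroxylase, averaged 0.0176 to 0.122 CPM, near the floor of 3 reads, which is 0.106 to 0.164 CPM in a library.

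Genes that carry proteins to lysosomes, tested beside CREG1, counted 4 rises and 3 falls of 23, with a median of 0.06 against 0.04 over all genes. IGF2R, the large mannose 6-phosphate receptor, fell from 73.7 ± 12.7 CPM in control and 53.7 ± 13.2 with taurine to 31.1 ± 5.46 with microplastics (log2 -1.02, edgeR adjusted p = 0.00364). SCARB2, the lysosomal receptor of glucocerebrosidase, fell by 1.33 on the log2 scale. TFE3, a transcription factor of lysosomal genes, rose by log2 0.93, and GNPTAB, which makes the mannose 6-phosphate tag, by 1.08. In taurine minus control 0 of 23 were called by edgeR, DESeq2 or limma-voom, and 1 had an edgeR unadjusted p under 0.05. The CREG1 paralog CREG2 averaged 0.146 to 0.484 CPM and was not tested.

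Of 6 tested relatives and partners of ANKRD1, 2 rose and 1 fell with microplastics, with a median of 0.19. MYPN, a sarcomere protein that binds ANKRD1, fell from 96.7 ± 43.5 CPM in control and 83.3 ± 12.3 with taurine to 32.0 ± 12.6 (log2 -1.49, edgeR adjusted p = 0.00471). PALLD, an actin-bundling protein, rose by log2 0.98. TTN, the giant sarcomere protein, rose by 0.57 but did not pass without control 2 (0.51), without microplastics 2 (0.61) or without microplastics 3 (0.47), and stood at -0.070 with the length trend removed. ANKRD23, a paralog, averaged 0.0317 to 0.181 CPM.

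Of 34 tested genes of the YAP and TEAD pathway besides ANKRD1, 6 rose, 4 fell and 24 did not pass, with a median of 0.18. CCN2, another target gene of YAP, was at 10.6 ± 2.29 CPM in control, 3.80 ± 1.43 with microplastics and 9.23 ± 2.75 with taurine (log2 -1.38 with microplastics, edgeR adjusted p = 0.00632). YAP1 itself rose by log2 0.70, and did not pass if microplastics 1 (0.69) or microplastics 2 (0.69) was left out. DOCK5 rose by log2 1.47 and the kinase gene LATS1 by 0.90, while MOB1B, a coactivator of LATS kinases, was lower (log2 -0.64). MOB1B did not pass when microplastics 2 was left out (-0.58) or with libraries scaled by size only (-0.18). CCN1 averaged 0.231 to 0.392 CPM and was not tested. Between taurine and control 0 of the 34 pathway genes and 0 of the 6 partners were called by edgeR, DESeq2 or limma-voom, and 0 and 1 had an edgeR unadjusted p under 0.05. ANKRD1 is also expressed by stromal and muscle cells. Of 10 stroma and smooth muscle markers 9 had a row and 4 were tested. Sums over the 9 were 11.7 to 22.1 CPM for control libraries, 27.3 to 32.2 for microplastics and 19.2 to 67.5 for taurine. Single markers went different ways: from control to taurine LUM averaged 0.101 and 13.5 CPM, and MYH11 1.59 and 0.739. The part of other cells in the ANKRD1 values was not tested.

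Peptidases related to XPNPEP1 counted 3 rises and 2 falls of 26, with a median of 0.18. DPP3, a cytosolic dipeptidyl peptidase, fell from 135 ± 32.5 CPM in control and 131 ± 38.2 with taurine to 13.9 ± 1.95 (log2 -3.25, edgeR adjusted p = 1.82e-05). TPP2, a large peptidase acting after the proteasome, rose by log2 0.60, and did not pass if microplastics 1 (0.56) or microplastics 3 (0.56) was left out or the length trend removed (0.38). NPEPPS, the puromycin-sensitive aminopeptidase, rose by 0.49, and missed the threshold if microplastics 1 (0.48), microplastics 2 (0.54) or microplastics 3 (0.50) was left out or the length trend removed (0.27). DPP8, a cytosolic dipeptidyl peptidase that cuts after proline, was lower (log2 -0.50), and missed it if microplastics 1 (-0.49) or microplastics 2 (-0.42) was left out or libraries were scaled by size only (-0.042). XPNPEP3, the mitochondrial paralog, was at 1.95 ± 1.00, 1.99 ± 0.307 and 2.30 ± 0.425 CPM in control, microplastics and taurine and did not pass (-0.09, positive at 0.34 when libraries were scaled by size only). XPNPEP2, the membrane-bound paralog, averaged 0 to 0.0363 CPM, under the floor. In taurine minus control 0 of 26 were called by edgeR, DESeq2 or limma-voom, and 2 had an edgeR unadjusted p under 0.05, both higher.

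Genes for making the small ribosomal subunit, NOP9 aside, counted 6 rises and 7 falls of 54, with a median of 0.19 against 0.04 over all genes. FCF1, an endonuclease-like factor of the processome, fell from 101 ± 19.4 CPM in control and 99.1 ± 11.7 with taurine to 31.4 ± 7.52 with microplastics (log2 -1.67, edgeR adjusted p = 0.000148). PNO1, a late assembly factor, stood at 1085 ± 211, 512 ± 28.3 and 989 ± 164 CPM in control, microplastics and taurine and was lower by log2 -1.02. RRP12 rose by log2 1.22 and BMS1, a GTPase of the processome, by 1.02. Neither passed when microplastics 1 was left out (1.10 and 0.94), nor BMS1 without microplastics 3 (0.95). Between taurine and control 0 of 54 were called by edgeR, DESeq2 or limma-voom, and 4 had an edgeR unadjusted p under 0.05, 2 higher and 2 lower.

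In the 6 lists the share called in microplastics minus the mean of control and taurine was 34.3% for sphingolipid genes, 30.4% for lysosomal sorting, 50% for the ANKRD1 partners, 29.4% for the YAP and TEAD pathway, 19.2% for peptidases and 24.1% for ribosome biogenesis, beside 26.0% of all tested genes. Scaling by library size only turned the counts toward rises, to 13 and 3 for sphingolipid genes, 11 and 2 for lysosomal sorting, 3 and 1 for the partners, 14 and 1 for YAP and TEAD, 7 and 1 for peptidases and 21 and 2 for ribosome biogenesis. Without microplastics 1 or without microplastics 3 the 12 sphingolipid calls were 6, the 7 lysosomal calls 4, and the 13 ribosome biogenesis calls 5 and 6. Without microplastics 1 or microplastics 2 the 10 YAP and TEAD calls were 5 and 6, and without microplastics 1, 2 or 3 the 5 peptidase calls were 1, 2 and 2. Without control 3 and taurine 3 the rises and falls were 9 and 7 for sphingolipid genes, 7 and 3 for lysosomal sorting, 3 and 1 for the partners, 10 and 5 for YAP and TEAD, 3 and 3 for peptidases and 13 and 8 for ribosome biogenesis. Between taurine and control 1 sphingolipid gene was then called lower, and 1 lysosomal, 1 partner, 5 YAP and TEAD, 1 peptidase and 5 ribosome biogenesis genes were called higher, with 1 ribosome biogenesis gene lower. Over all genes tested that fit called 5.83% between taurine and control, and the libraries it leaves out were set apart for resembling the other group.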

How the data were processed

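Per the file headers, the deposited table lists 22590 transcripts with estimated counts, unscaled and not all whole, and with the authors' FPKM and TPM. Which aligner, counter and build were used is not given in the sources used here. A further 9 columns of scaled counts and 12 columns of means were not used. Each gene's transcripts were added up and then rounded. Symbols came from a RefSeq gene table (assembly ARS-UCD2.0) matched on gene ID, which named 16995 of 17852 genes (95.2%). FPKM served only to derive an implied length. TPM served to compare levels between genes, and as a further scale for levels between groups.

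Genes were tested with edgeR 4.0.16 in R 4.3.3 (quasi-likelihood test, robust fit, TMM factors, filter of minimum count 10 and total 15, 1 coefficient per group over 9 libraries, Benjamini-Hochberg adjustment over 13190 genes, threshold 0.05). SE is the absolute log2 fold change over the square root of F. CPM are TMM-scaled. On simulated counts for microplastics minus the mean of control and taurine, over 13190 genes, 2 of 50 genes changed 1.5-fold were called, 18 of 50 at 2-fold, 40 of 50 at 4-fold and 48 of 50 at 8-fold, with 8 false calls. No other genes were changed, a smaller part than the 26.0% of tested genes called in the data. The shares called in the simulation therefore need not hold for the data.

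The 5 genes and the 6 lists were chosen with earlier results of these data known. Named genes are the 5, the 3 most correlated with each, from each list at most 2 rising and 2 falling genes by adjusted p, the next gene outside the ranks in each direction, and paralogs and targets fixed by name. The correlated genes were sought only among tested genes with a symbol that does not start with LOC. NVL and CIDEB were added after their overlap was seen. A floor of 3 reads covers counting error only, since reads carry no molecular identifiers. Alternatives were DESeq2 1.42.0 size factors and Wald test, scaling by library size only, limma-voom (limma 3.58.1), other filters and thresholds, a replicate block, libraries left out, tests by transcript and removal of a length trend; for microplastics minus control and taurine minus microplastics they were added after seeing the data.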

Additional observations from a re-analysis of the deposited data

How the results depend on the processing

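Genes called in microplastics minus the mean of control and taurine numbered 3430, with 42.0% higher. Scaling by library size only gave 5468, with 83.7% higher, and leaving out 1 library gave 1856 (without microplastics 3) to 4306 (without control 3), with 1977 without microplastics 1 and 2185 without microplastics 2. In taurine minus control the 1 called gene (750 at an edgeR unadjusted p under 0.05) became 0 with a filter of 5 CPM in 3 libraries, with limma-voom or with only control and taurine in the fit. It became 5 with the DESeq2 Wald test (DEGS1, NOP9, CREG1, XPNPEP1 and 1 other) and 4 when transcripts were tested one by one. With 1 library left out it was 0 to 2 (NOP9 among the 2 without taurine 3), and without control 3 and taurine 3 it was 783 (3 of the 5 genes among them). Control 3 and taurine 3 were left out because each resembled the other group, and the 5 genes were chosen on this difference, so their calls are no test. The cause of these shifts was not tested.

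Replicate numbers did not pair the libraries. Deviations from group means correlated at -0.441 to 0.261 between same-numbered libraries of 2 groups, and 1 of 9 libraries correlated best with its own number. With the replicate number as a replicate block the counts were 2710 and 0.

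NOP9 passed the threshold of microplastics minus the mean of control and taurine with scaling by library size only (1.17), at an adjusted p under 0.1 (0.73), without microplastics 2 (0.98) and without taurine 1 (0.85), but in none of the other 7 fits with 1 library left out (range over all 9 fits 0.53 to 0.98), and XPNPEP1 with scaling by library size only (0.52; 0.02 to 0.13 with 1 library left out). The sign turned for XPNPEP3 without control 3 (0.18; range -0.21 to 0.18 with 1 library left out), without control 3 and taurine 3 (0.11) and with scaling by library size only (0.34), for NVL without microplastics 3 (-0.17; range -0.17 to 0.16) and with the length trend removed (-0.12, from 0.04), and for TTN with the length trend removed (-0.070). Taurine minus microplastics turned for NOP9 without microplastics 2 (-0.038), without taurine 1 (-0.038; range -0.038 to 0.52) and with scaling by library size only (-0.19), and for XPNPEP1 with that scaling (-0.038). At the depth of ANKRD1 and NOP9 in their lowest libraries, 29 and 75 reads, counting error limits the precision.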
